A study of Mus musculus with 16 samples.

Results

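Endothelial cells of mouse embryos that carry a single altered Notch1 allele over a null allele (12/-, 3 libraries) were compared with those of wild-type embryos (+/+, 3 libraries), 6 of the 16 libraries of the series, chosen by the genotype in their labels. The question was what a strongly reduced and altered Notch1 function does to endothelial transcripts at embryonic day 9.5. In the 12 allele the intracellular domain of Notch1 is exchanged for that of Notch2, and the null allele (-) is a deletion of Notch1. By the labels, +/+ embryos develop a normal endothelium and 12/- embryos a dysfunctional one. CD31-positive cells were sorted by flow cytometry from whole embryos and their RNA was sequenced after tagmentation. The strain and sex are not in the labels, nor whether a library came from 1 embryo or several. The p-values below set the difference between 12/- and +/+ against the scatter of libraries within genotypes, pooled over the genotypes. That scatter may be in part technical. The other 10 libraries also entered the fit. Those of +/12, +/- and +/vg, with 3 libraries each and all described as normal, added to its estimate of spread. The genotype 12/vg, described as partly impaired, had 1 library, which adds nothing to that estimate. In the vg allele a valine at the cleavage site is replaced by glycine, which makes the released domain less stable.

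Notch receptors are cleaved after they bind a ligand on a neighbouring cell, and the released intracellular domain joins the DNA-binding protein Rbpj in the nucleus to switch on genes such as Hes1 and Hey1. In the forming vasculature Notch1 signalling takes part in arterial identity, in the balance of tip and stalk cells during sprouting, and in the formation of the endocardium and its cushions. Oxygen supply acts on endothelial cells through another pathway, in which prolyl hydroxylases mark the alpha subunits of hypoxia-inducible factor (HIF) for degradation while oxygen is present. When oxygen is low the subunits persist and activate genes of glycolysis, mitochondrial adaptation, matrix modification and vessel growth.

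Values are in FPKM, fragments per kilobase of transcript relative to the mapped fragments of a library, scaled between libraries and summed over the transcripts of a gene. The 6 libraries held from 1.30 to 1.73 gigabases of aligned sequence, and the 12/- libraries (1.30 to 1.46) were all less deep than the +/+ libraries (1.65 to 1.73). Pearson's r between log2 profiles, taken across genes (not replicates, and not independent), was 0.897 to 0.925 over the 6 pairs within the groups and 0.890 to 0.908 over the 9 pairs between them. The file names carry a number that is below 300 for all 12/- libraries and above it for all +/+ libraries. The labels do not say what this number is, and with no library of either group in the range of the other, the number and the genotype cannot be told apart within the 6 libraries. Pan-endothelial markers were high in every library, and the sum of the 20 was 1290 to 1390 FPKM in +/+ and 1547 to 1780 in 12/-, with no overlap. The sums of the other marker lists overlapped between the groups, except for the neural list (22.1 to 27.4 in +/+ and 27.6 to 39.8 in 12/-), nearly all of which was Nes. These sums ran from 284.5 to 907.6 and 415 to 1720 for megakaryocyte and platelet genes, from 120.1 to 136.6 and 89.1 to 347 for erythroid genes, from 7.83 to 11.6 and 8.86 to 15.4 for macrophage genes, from 31.5 to 44.8 and 22.9 to 41.4 for smooth muscle and mesenchyme, from 29.9 to 95.1 and 35.5 to 48.1 for cardiomyocytes, and from 18.9 to 34.5 and 22.8 to 43.8 for epithelium, in +/+ and 12/- respectively.

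The targeted gene came first. Notch1 was at 23.3, 20.7 and 17.4 FPKM in +/+ and 19.7, 16.2 and 15.4 in 12/-, and the groups overlapped (log2 difference -0.24 ± 0.15, SE, limma adjusted p = 0.519). Notch2, of which the 12 allele carries a part, was at 2.67, 3.31 and 2.89 in +/+ and at 4.11, 4.37 and 3.39 in 12/-. Its 12/- libraries lay above all +/+ libraries, as for 10.4% of all genes, but the difference of 0.32 ± 0.15 did not pass (limma adjusted p = 0.398). Values summed over the whole gene do not show which part of Notch1 a transcript holds, so they cannot check the deletion.

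The genes called higher in 12/- included 10 of 21 tested hypoxia-induced mitochondrial and stress genes and 7 of 14 glycolytic enzymes. They also included 5 of 12 collagen hydroxylases and folding genes, and few genes were called lower. These lists were chosen with earlier results of these data known, so their counts are not independent support. Of 10550 genes tested in limma with Benjamini-Hochberg adjustment, 56 (0.531%) were called higher in 12/- and 7 (0.0664%) lower, 63 in all (0.597%), at an adjusted p under 0.05. In all 63 called genes the 3 libraries of one group lay beyond the 3 of the other, while over all genes this was so for 1094 (10.4%) above and 999 (9.47%) below. Before adjustment (p under 0.05), 734 genes (6.96%) were higher and 554 (5.25%) lower. The median log2 difference over all genes was -0.0026, and without scaling it was 0.062. Of all genes 48.9% had a positive difference. A log2 difference of 1 or more was seen for 161 genes and one of -1 or less for 156. Without scaling 52 genes were called higher and 0 lower, so the calls of the 7 falls below depend on the scaling, while their log2 differences stayed at -0.51 to -0.90 without it (limma adjusted p from 0.056 to 0.144), against -0.58 to -0.97 with it. Leaving out 12/- replicates 1, 2 and 3 in turn left 18, 36 and 22 genes called higher, and leaving out +/+ replicates 1, 2 and 3 left 74, 26 and 26. In the 22 alternative fits no called gene changed its direction, and 12 genes were called in every alternative that tested them: Adm, Bnip3, Bhlhe40, Cav1, Ndufa4l2, Sparcl1, Kcne3, Stc2, Pfkp, Fam162a, Plod2 and Ero1l.

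**Figure D1:**
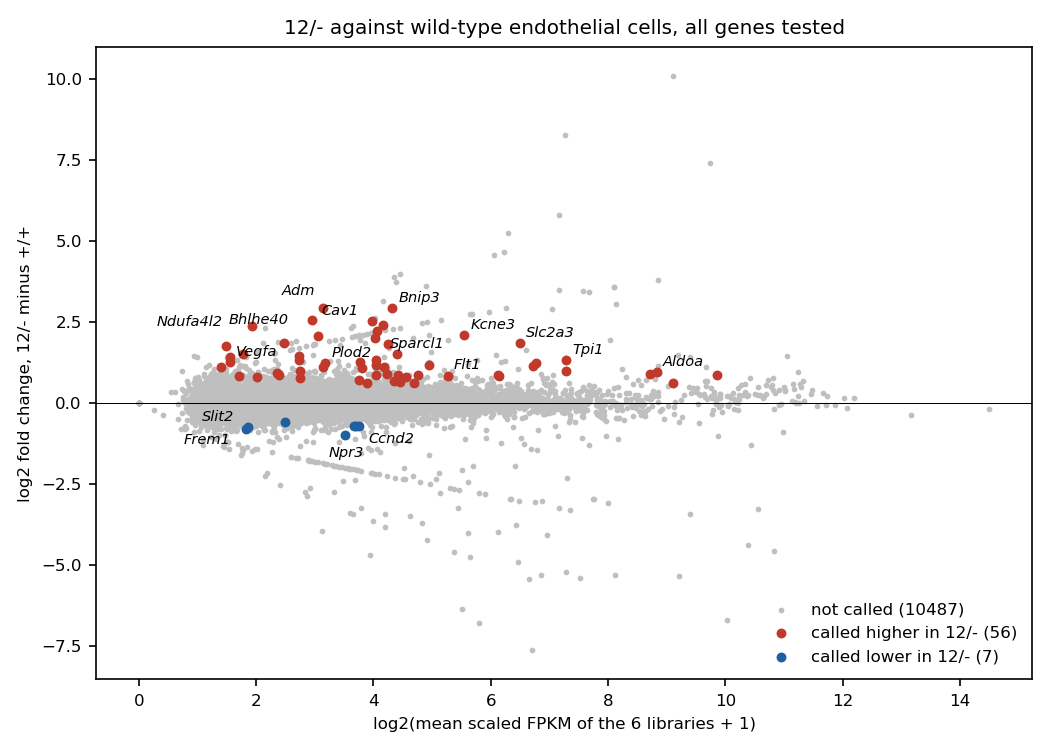
Log2 difference of 12/- from +/+ (vertical axis) against the mean level in the 6 libraries (horizontal axis, log2 of scaled FPKM + 1), 1 point per gene, for all 10550 genes tested. Red points are the 56 genes called higher and blue points the 7 called lower; the grey points, many of them far from 0, were not called.

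In bulk RNA, a change in the share of a cell type and a change in RNA per cell cannot be told apart, and this holds for every gene below. The called genes are described in groups by role, sorted after their values were seen. The falls were put in a group of their own, so the other groups hold rises only. The first of these has 15 called genes of oxygen sensing, mitochondria and cell stress. The prolyl hydroxylases Egln3 and Egln1, enzymes that use oxygen to mark HIF alpha subunits, were both among them. Egln3 was at 5.85, 5.74 and 4.88 FPKM in the +/+ libraries and at 25.8, 21.8 and 27.1 in the 12/- libraries (log2 difference 2.00 ± 0.24, SE, limma adjusted p = 0.0016). Egln1 rose from 12.1 ± 0.733 to 23.6 ± 3.36 (SD, n = 3 each), by 0.90 ± 0.17 (limma adjusted p = 0.032). The subunits themselves did not pass. Hif1a was at 10.9 to 13.4 in +/+ and 8.88 to 10.2 in 12/- (limma adjusted p = 0.444), and Epas1 at 11.0 to 14.1 and 16.2 to 18.7 (limma adjusted p = 0.483). All 12/- libraries lay below +/+ for Hif1a, as for 9.47% of all genes, and above for Epas1, as for 10.4%. The Epas1 difference was -0.088 with a term for the file-number range and -0.006 against the 5 normal libraries with low file numbers. Of the 9 tested genes of HIF subunits and hydroxylases, 2 were called higher and 0 lower, with a median of 0.12.

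The mitochondrial members had some of the widest separations. Bnip3, a receptor that marks mitochondria for removal, was at 3.14, 3.28 and 4.72 FPKM in +/+ and at 35.1, 35.3 and 32.6 in 12/-, 9.25 times higher in the mean (log2 difference 2.92 ± 0.30, limma adjusted p = 3.5e-04). Its relative Bnip3l rose far less, from 19.4 ± 0.681 to 30.5 ± 1.34 (0.63 ± 0.12, limma adjusted p = 0.039). Ndufa4l2, a homologue of a mitochondrial complex subunit, was nearly undetected in +/+, at 0.24, 0.268 and 0.153, and stood at 6.61, 4.76 and 4.79 in 12/- (2.38 ± 0.25, limma adjusted p = 3.9e-04). These low +/+ values rest on few reads, and the added 1 before taking logs makes the log2 difference smaller than the 24.4-fold ratio of the means. Cox4i2, the oxygen-responsive form of cytochrome oxidase subunit 4, was below 1 in every +/+ library and at 4.63, 2.93 and 4.75 in 12/- (1.51 ± 0.27, limma adjusted p = 0.024). Fam162a, a mitochondrial protein linked to hypoxic cell death, was abundant throughout and separated cleanly, at 66.9, 63.1 and 60.8 against 143.4, 166.2 and 147.9 (1.25 ± 0.12, limma adjusted p = 2.8e-04). Ak4, a mitochondrial adenylate kinase, rose by 1.32 ± 0.25 (limma adjusted p = 0.035).

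Among transcription regulators and stress proteins, Bhlhe40, a repressor also known as Dec1, was at 1.32, 1.06 and 1.25 FPKM in +/+ and at 12.8, 9.09 and 14.7 in 12/- (2.56 ± 0.24, limma adjusted p = 2.5e-04). Mxi1, a repressor that opposes Myc, rose from 1.36 ± 0.328 to 3.18 ± 0.364 (SD, n = 3 each). Ndrg1, a growth-arrest gene, varied widely between the 12/- libraries, at 19.3, 5.45 and 13.1 against 1.45, 2.22 and 2.15 in +/+ (2.07 ± 0.40, limma adjusted p = 0.039). Ankrd37, an ankyrin repeat protein, was at 4.84, 6.33 and 3.11 in +/+ and 29.8, 21.3 and 36.6 in 12/-. Stc2, a secreted glycoprotein of the stress response, rose from 1.39 ± 0.357 to 7.72 ± 1.60 (1.86 ± 0.26, limma adjusted p = 0.0054). Trib3, a pseudokinase of the stress response, was at 0 in 1 +/+ library and at no more than 0.408 in the others, and at 4.69, 1.51 and 3.90 in 12/- (1.76 ± 0.30, limma adjusted p = 0.019). Hmox1, which degrades haem, rose by 1.16 ± 0.17 (limma adjusted p = 0.0086), and its +/+ libraries (8.11 to 10.3) lay below all 9 libraries of the other normal genotypes (13.1 to 19.3). Against the 5 normal libraries with low file numbers the Hmox1 difference was 0.44 (limma adjusted p = 0.353). Ier3 and Ddit4, stress-response genes singled out after their values were seen, had log2 differences of 2.30 (limma adjusted p = 0.05003, just above the threshold) and 1.87 (limma adjusted p = 0.056).

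Of the 21 genes tested in the list of hypoxia-induced mitochondrial and stress genes, 10 were called higher and 0 lower. A positive difference was seen in 20 (48.9% of all genes had one), and the median was 0.83. Over the alternatives 6 to 12 of the list were called. Of the 15 called genes, 7 stayed called when any 1 of the 6 libraries was left out: Bnip3, Ndufa4l2, Fam162a, Ankrd37, Egln3, Bhlhe40 and Stc2. Leaving out 12/- replicates 1, 2 and 3 in turn left 7, 11 and 8 called, and leaving out +/+ replicates 1, 2 and 3 left 12, 9 and 8, with adjusted p-values of the lost genes up to 0.204.

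Promoter windows from RefSeq were available for 40 of the 56 genes that rose, on the build GRCm38.p6, which differs from the mm9 build of the deposited values. Each window runs from 250 bases before to 50 bases after an annotated start. HIF complexes are known to bind a core written ACGTG or GCGTG. The windows of 5 of the 10 largest rises are printed below because they hold ACGTG, given 5′ to 3′ on the strand of the gene, with the match in capitals. Windows were available for 6 of those 10. A match on the opposite strand reads CACGT. Bnip3 lies at chr7:138909457-138909756 on the minus strand, Ankrd37 at chr8:45999801-46000100 on the minus strand, Egln3 at chr12:54203825-54204124 on the minus strand, Cav1 at chr6:17306085-17306384 on the plus strand and Kcne3 at chr7:100176420-100176719 on the plus strand.
Bnip3: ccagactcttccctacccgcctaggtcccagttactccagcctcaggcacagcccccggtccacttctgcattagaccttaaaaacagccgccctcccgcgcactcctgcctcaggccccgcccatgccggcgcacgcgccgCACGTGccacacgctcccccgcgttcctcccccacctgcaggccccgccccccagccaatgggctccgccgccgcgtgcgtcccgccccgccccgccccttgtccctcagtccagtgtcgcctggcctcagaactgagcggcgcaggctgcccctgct
Ankrd37: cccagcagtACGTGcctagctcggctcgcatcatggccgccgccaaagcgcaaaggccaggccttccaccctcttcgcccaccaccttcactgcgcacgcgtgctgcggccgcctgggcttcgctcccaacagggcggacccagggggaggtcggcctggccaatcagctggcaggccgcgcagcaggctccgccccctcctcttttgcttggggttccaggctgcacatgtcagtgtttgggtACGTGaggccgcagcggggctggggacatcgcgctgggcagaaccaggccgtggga
Egln3: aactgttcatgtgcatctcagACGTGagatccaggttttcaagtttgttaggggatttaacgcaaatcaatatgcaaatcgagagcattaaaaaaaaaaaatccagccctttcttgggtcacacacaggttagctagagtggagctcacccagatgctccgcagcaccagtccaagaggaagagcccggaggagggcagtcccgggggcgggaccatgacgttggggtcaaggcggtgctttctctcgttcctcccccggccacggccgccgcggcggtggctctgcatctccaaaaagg
Cav1: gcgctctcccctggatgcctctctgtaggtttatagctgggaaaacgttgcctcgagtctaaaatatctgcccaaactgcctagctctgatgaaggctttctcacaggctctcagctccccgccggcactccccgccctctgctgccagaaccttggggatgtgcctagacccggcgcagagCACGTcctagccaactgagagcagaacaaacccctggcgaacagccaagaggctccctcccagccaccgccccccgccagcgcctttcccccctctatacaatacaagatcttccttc
Kcne3: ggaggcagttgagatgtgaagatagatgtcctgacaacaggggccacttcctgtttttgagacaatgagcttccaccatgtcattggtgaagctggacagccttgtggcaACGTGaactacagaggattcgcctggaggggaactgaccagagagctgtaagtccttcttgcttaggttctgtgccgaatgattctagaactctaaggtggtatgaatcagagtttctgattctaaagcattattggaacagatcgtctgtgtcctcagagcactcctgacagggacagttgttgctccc
In Bnip3 the capitals are matches on both strands that overlap as CACGTG, in Ankrd37 there are 2 separate matches, and in the other 3 genes there is 1. Cav1 and Kcne3 have 2 windows each, of which 1 is shown.

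Searched on both strands, ACGTG was found in a window of 22 of the 40 genes that rose (55%) and of 2482 of the 8189 tested genes with a window (30.3%). Counted by window rather than by gene, the shares were 27 of 60 (45%) and 2724 of 10421 (26.1%), and 6447 of all 32851 RefSeq windows held it (19.6%). The median GC content was 63.8% for the genes that rose and 61.3% for all tested genes with a window. GCGTG was in 25 of the 40 (62.5%) against 58.1% of all, and CACGTG, which contains ACGTG, in 4 (10%) against 12.1%. TGGGAA, the sequence bound by Rbpj, was in 12 (30%) against 25.8%. Among the 6 of 7 falling genes with a window, 1 held ACGTG. The Adm window held no ACGTG and 2 matches of GCGTG. The rest of the 22 with ACGTG were Vegfa, P4ha1, Pfkfb3, Ero1l, Egln1, Aldoa, Pkm2, Slc16a3, Ak4, Fam162a, Mxi1, Pde4b, Grhpr, Galk1, Ptrf, Khnyn and Eltd1. These are counts of letters in a window and were given no test.

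**Figure D2:**
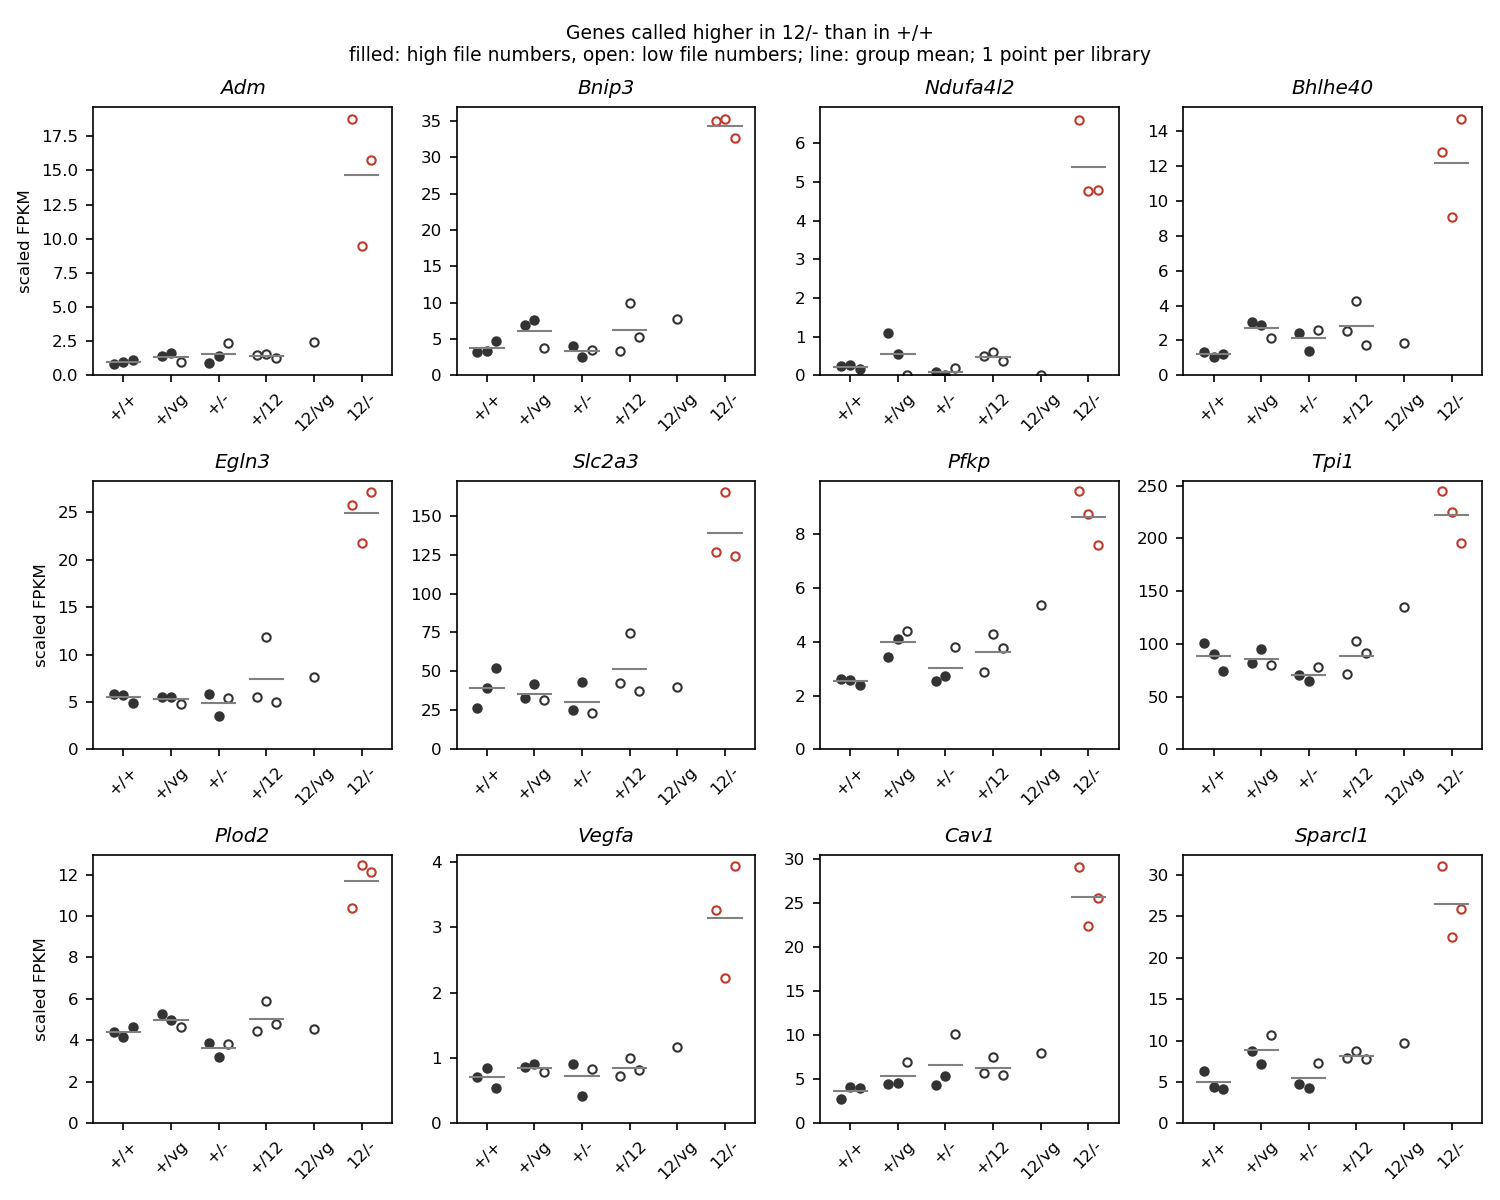
Scaled FPKM (vertical axis, linear, from 0) of 12 genes called higher in 12/-, 1 point per library, in the 6 genotypes, with a line at the group mean. Red points are 12/-, filled points have a file number above 300 and open points one below it; for all 12 genes the 3 red points lie above every other point, the single 12/vg library included.

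Sugar uptake and glycolysis formed the second group of rises, with 11 called genes. The glucose transporter Slc2a3 was at 26.4, 39.4 and 52.1 FPKM in +/+ and at 126.6, 165.2 and 124.3 in 12/- (1.83 ± 0.30, limma adjusted p = 0.015). Slc16a3, which exports lactate, rose from 10.1 ± 2.18 to 30.1 ± 4.63 (SD, n = 3 each), 2.99 times higher in the mean (limma adjusted p = 0.025). The more abundant glucose transporter Slc2a1, named here after its values were seen, did not pass, at 300.8 to 329.4 in +/+ and 490.6 to 687.9 in 12/- (0.90 ± 0.21, limma adjusted p = 0.089).

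Along the pathway, 7 of 14 tested glycolytic enzymes were called higher and 0 lower, 13 had all 12/- libraries above all +/+ libraries (10.4% of all genes did), and the median difference was 1.03. Over the alternatives 2 to 10 of them were called. Gpi1, which makes fructose 6-phosphate, rose from 65.2 ± 13.3 to 143.8 ± 31.4 (limma adjusted p = 0.018). At the phosphofructokinase step, Pfkp was at 2.62, 2.59 and 2.40 FPKM in +/+ and 9.62, 8.74 and 7.62 in 12/- (1.45 ± 0.15, limma adjusted p = 3.5e-04). Pfkl, the more abundant of these isoforms, rose from 18.0 ± 3.51 to 41.4 ± 5.33 (1.17 ± 0.24, limma adjusted p = 0.049), and Pfkfb3, which makes the allosteric activator of that step, from 4.60 ± 0.797 to 11.1 ± 0.992 (1.11 ± 0.16, limma adjusted p = 0.0066). Further down, Aldoa rose by 0.96 ± 0.15 (limma adjusted p = 0.012), Tpi1 by 1.32 ± 0.16 (limma adjusted p = 0.0013) and Pkm2, the pyruvate kinase gene, by 0.89 ± 0.17 (limma adjusted p = 0.036). Tpi1 was at 101.1, 90.5 and 74.0 in +/+ and 245.5, 225.4 and 196.1 in 12/-.

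The enzymes between these steps had differences of like size that did not pass. Values singled out after they were seen are those of Pgk1 (1.15 ± 0.27, limma adjusted p = 0.090), Gapdh (1.11 ± 0.29, limma adjusted p = 0.128) and Ldha (0.69 ± 0.28, limma adjusted p = 0.354). For each of them the 12/- libraries lay above all +/+ libraries, as for 10.4% of all genes. Several glycolytic genes have processed pseudogenes of nearly the same sequence, which makes their estimates uncertain. The galactokinase Galk1 and the glyoxylate reductase Grhpr, which lie outside the list, also rose, by 0.88 ± 0.12 (limma adjusted p = 0.0054) and 1.33 ± 0.25 (limma adjusted p = 0.032). Of the 11 called genes, Pfkp, Tpi1 and Galk1 stayed called without any 1 library. Without 12/- replicates 1, 2 and 3 the calls numbered 3, 6 and 5, and without +/+ replicates 1, 2 and 3 they numbered 10, 5 and 6, with adjusted p-values of the lost genes up to 0.240.

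Oxidative phosphorylation, the oxygen-consuming route to ATP, had no called gene. Of 73 tested subunit genes 0 were called in limma, 3 were higher and 2 lower before adjustment (p under 0.05), and the median difference was -0.065, close to that of all genes. The median changed sign only without scaling, at 0.018, among the 22 alternatives run.

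Of the 12 tested collagen hydroxylases and oxidative folding genes, 5 were called higher and 0 lower. All 12 had a positive difference (48.9% of all genes did), and the median was 0.61. P4ha1, a collagen prolyl hydroxylase, was at 7.14, 6.66 and 7.17 FPKM in +/+ and at 19.4, 15.5 and 20.2 in 12/- (1.27 ± 0.19, limma adjusted p = 0.0074). The lysyl hydroxylase Plod2 was at 4.39, 4.16 and 4.62 against 10.4, 12.5 and 12.1 (1.23 ± 0.12, limma adjusted p = 2.5e-04), and its relative Plod1 rose from 10.6 ± 0.226 to 20.3 ± 2.90 (0.87 ± 0.16, limma adjusted p = 0.025). Like the HIF hydroxylases, these enzymes use oxygen as a substrate. Ero1l, an oxidase that helps form disulfide bonds in the endoplasmic reticulum, rose from 8.05 ± 0.611 to 18.0 ± 1.48 (1.07 ± 0.12, limma adjusted p = 6.9e-04). Loxl2, a lysyl oxidase that crosslinks collagen, rose from 14.3 ± 3.00 to 26.7 ± 2.02 (0.87 ± 0.15, limma adjusted p = 0.018). Outside that list, Xylt1, which starts sugar chains on proteoglycans, was below 1 in every +/+ library and at 2.68, 2.31 and 4.88 in 12/- (1.41 ± 0.28, limma adjusted p = 0.040).

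In the basement membrane and Sparc family, 1 of 15 tested genes was called higher and 1 lower, and the median was 0.34. Sparcl1, a secreted matrix glycoprotein, was at 6.35, 4.40 and 4.19 FPKM in +/+ and at 31.1, 22.5 and 25.9 in 12/- (2.21 ± 0.20, limma adjusted p = 2.5e-04). Frem1, a matrix protein of embryonic basement membranes, was the member that fell. Structural members singled out after their values were seen had smaller differences that did not pass: Nid2 1.00 (limma adjusted p = 0.085), Col4a2 0.74 (limma adjusted p = 0.122) and Sparc 0.70 (limma adjusted p = 0.122). For all of them the 12/- libraries lay above the +/+ libraries, as for 10.4% of all genes. Of the 7 called matrix and folding genes that rose, Plod2, Ero1l and Sparcl1 stayed called without any 1 library. Leaving out 12/- replicates 1 to 3 in turn left 3, 5 and 3, and leaving out +/+ replicates 1 to 3 left 6, 4 and 4, with adjusted p-values of the lost genes up to 0.171.

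Another 11 of the called rises were ligands, receptors, membrane genes and intracellular signalling genes. Among them was Adm, the vasodilator peptide adrenomedullin, at 0.841, 0.964 and 1.11 FPKM in +/+ and 18.8, 9.47 and 15.8 in 12/-, 15.1 times higher in the mean (2.94 ± 0.24, limma adjusted p = 1.9e-04). The genes of its receptor complex were not called, with Calcrl at 34.0 to 35.8 in +/+ and 30.5 to 32.7 in 12/- (limma adjusted p = 0.690) and Ramp2 at 207.4 to 215.8 and 220.5 to 255.1 (limma adjusted p = 0.650). Of the 6 genes tested in the adrenomedullin system, Adm alone was called. Calcrl and Ramp2 were singled out after their values were seen.

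Vegfa, the main growth factor of endothelial cells, was low in this sorted population, at 0.711, 0.851 and 0.542 FPKM in +/+, and stood at 3.26, 2.21 and 3.93 in 12/- (1.26 ± 0.19, limma adjusted p = 0.0086). Its receptor Flt1 rose from 29.5, 25.3 and 24.9 to 51.3, 48.6 and 45.2 (0.84 ± 0.15, limma adjusted p = 0.024). Kdr, the main signalling receptor, was at 70.9 to 78.5 in +/+ and 83.4 to 103.6 in 12/- and did not pass (0.31 ± 0.12, limma adjusted p = 0.331). The VEGF list had 2 of 8 tested genes called higher and a median of 0.25.

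Kcne3, a potassium channel subunit found in tip cells, was at 18.0, 18.9 and 13.0 FPKM in +/+ and 88.0, 59.8 and 76.2 in 12/- (2.10 ± 0.23, limma adjusted p = 4.9e-04). Adm and Kcne3 were the 2 of 20 tested tip cell and sprouting genes that were called higher (0.531% of all genes were). Of the 20, 17 had a positive difference (48.9% of all genes did). Their median was 0.58, or 0.275 with a term for the file-number range. Igfbp3, on the tip cell and the arterial lists, was at 34.7, 31.4 and 36.6 in +/+ and 132.5, 73.8 and 93.2 in 12/- and just missed the threshold (1.48 ± 0.31, limma adjusted p = 0.059). Adora2a, an adenosine receptor, rose by 1.11 ± 0.20 (limma adjusted p = 0.025), Pde4b, which breaks down cAMP, by 1.83 ± 0.30 (limma adjusted p = 0.014), and the G protein subunit Gng2 by 0.62 ± 0.12 (limma adjusted p = 0.039). Eltd1, an adhesion receptor of endothelium, was at 7.97, 11.2 and 8.85 in +/+ and close together in 12/-, at 15.6, 15.8 and 15.7 (0.70 ± 0.13, limma adjusted p = 0.035). Smad7, which inhibits TGF-beta signalling, rose by 0.77 ± 0.13 (limma adjusted p = 0.017) and was the 1 called gene of 22 in the BMP and TGF-beta list, whose median was 0.08.

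Caveolae are membrane pits whose coat is built from caveolins and cavins. Cav1, the main caveolin of endothelium, was at 2.79, 4.11 and 3.98 FPKM in +/+ and at 29.1, 22.4 and 25.6 in 12/- (2.53 ± 0.25, limma adjusted p = 2.8e-04), and the cavin gene Ptrf rose from 18.1 ± 0.997 to 33.8 ± 3.81 (0.86 ± 0.17, limma adjusted p = 0.040). The +/+ libraries were low for Cav1, below all 9 libraries of the other normal genotypes (4.35 to 10.1). Against the 5 normal libraries with low file numbers the Cav1 difference was 1.73 (limma adjusted p = 0.013) and that of Ptrf was 0.44 (limma adjusted p = 0.187). The other 4 tested caveola genes were not called and the list median was 0.12.

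Among pan-endothelial markers 18 of 20 had a positive difference (48.9% of all genes did), the median was 0.34, and Flt1 was the 1 called. Pecam1, which encodes the CD31 used for the sort, was at 49.8, 47.5 and 50.8 FPKM in +/+ and at 89.2, 72.9 and 72.6 in 12/- (0.65 ± 0.16, limma adjusted p = 0.107), and Cdh5 at 153.5 to 167.3 and 176.7 to 243.3 (0.36 ± 0.15, limma adjusted p = 0.373). These markers moved the same way as Flt1 and Eltd1, and their part in those rises was not tested. Arterial genes had 0 of 17 called in limma, 2 higher and 1 lower before adjustment (p under 0.05), and a median of 0.22, which was -0.099 with a term for the file-number range and -0.006 against the 5 normal libraries with low file numbers. The venous genes had 0 of 8 called in limma, 1 higher and 0 lower at that level, and a median of 0.05. Of the 11 called vascular genes, Adm, Kcne3 and Cav1 stayed called without any 1 library. Calls numbered 3, 6 and 3 without 12/- replicates 1, 2 and 3, and 8, 5 and 4 without +/+ replicates 1, 2 and 3, with adjusted p-values of the lost genes up to 0.215.

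**Figure D3:**
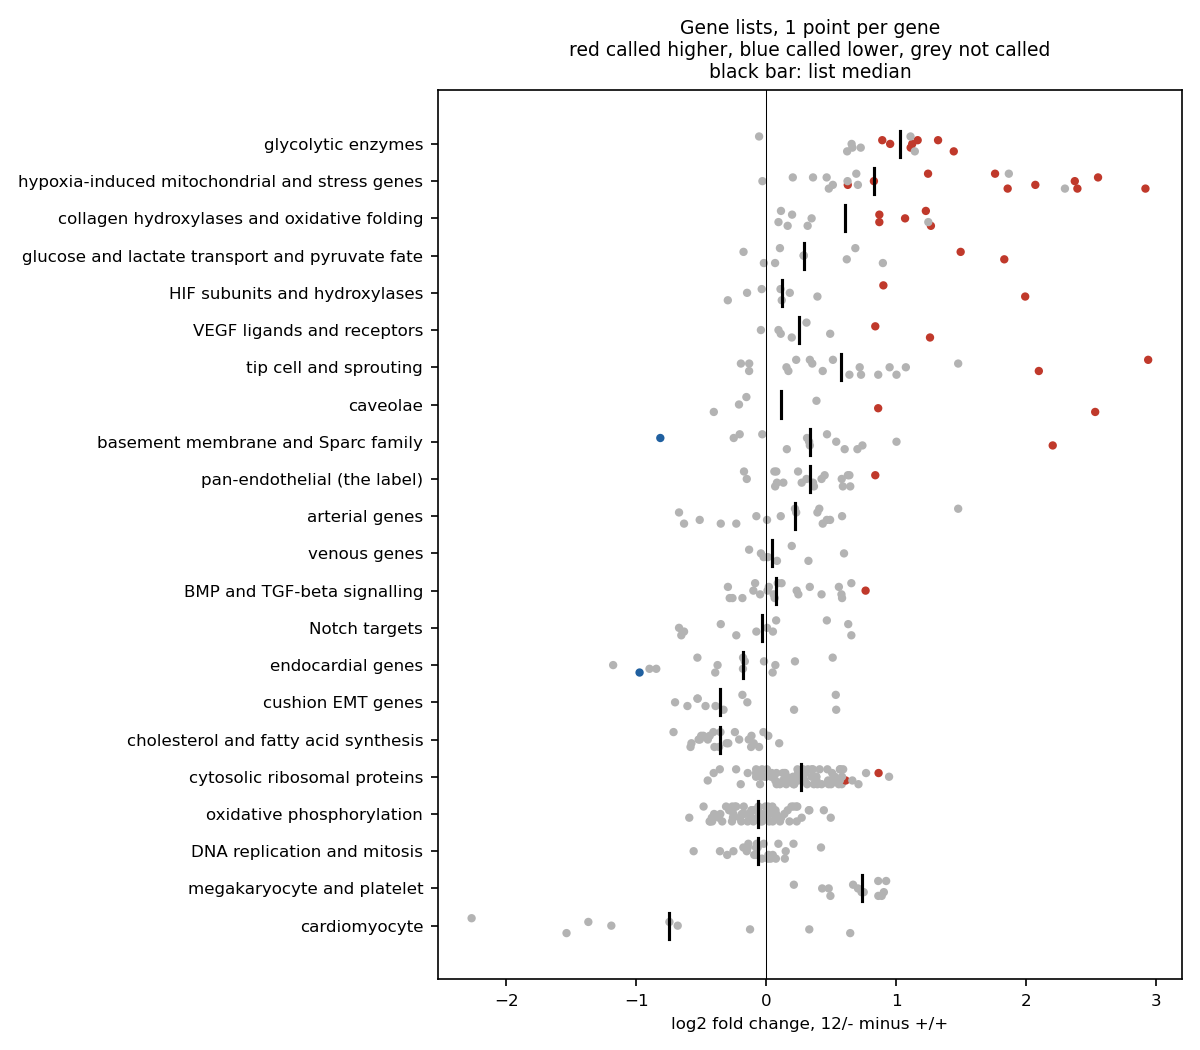
Log2 difference of 12/- from +/+ (horizontal axis) for each tested gene of the lists named on the vertical axis, 1 point per gene, with a black bar at the list median. Red points are called higher, blue points called lower and grey points not called. The order of the lists was set by hand, and not all lists are shown. Red points include 7 of 14 glycolytic enzymes and 5 of 12 collagen hydroxylase and folding genes.

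The other 12 rises belonged to no such group and are named to account for every called gene, after their values were seen. They were Eif4ebp1, a repressor of translation (0.83 ± 0.11, limma adjusted p = 0.0036), the sialyltransferase St3gal1 (0.80 ± 0.11, limma adjusted p = 0.0047), the polyamine enzyme Odc1 (0.98 ± 0.16, limma adjusted p = 0.012), the vesicle GTPase Rab3a (1.10 ± 0.20), the endosomal adaptor Appl2 (1.00 ± 0.18), Rgnef (0.93 ± 0.16), Arhgap18 (0.67 ± 0.12), Khnyn (0.86 ± 0.16), the cyclin Ccng2 (0.79 ± 0.16), the kinase Csnk1e (0.64 ± 0.12), and the ribosomal protein genes Rpl17 (0.87 ± 0.16) and Rpl6 (0.61 ± 0.12). Eif4ebp1 was at 45.3 to 54.6 FPKM in +/+ and 82.8 to 93.2 in 12/-, with no overlap. Ribosomal protein genes leaned upward as a list, with 62 of 76 tested positive (48.9% of all genes were) and a median of 0.27. Of these genes 38 had all 12/- libraries above all +/+ libraries (10.4% of all genes did), but 2 were called, and 0 to 12 over the alternatives. They have many near-identical pseudogenes, so single members are uncertain. Eif4ebp1 and St3gal1 stayed called without any 1 library, and the 12 calls became 2, 8 and 2 without 12/- replicates 1, 2 and 3 and 11, 3 and 2 without +/+ replicates 1, 2 and 3, with adjusted p-values of the lost genes up to 0.215.

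The 7 genes that fell had smaller differences than most rises, from -0.58 to -0.97. Npr3, the natriuretic peptide clearance receptor of the endocardium, was tightly grouped, at 13.7, 14.2 and 14.5 FPKM in +/+ and 6.87, 6.71 and 6.53 in 12/- (-0.97 ± 0.15, limma adjusted p = 0.011). Frem1 was at 3.38, 3.87 and 3.34 against 1.46, 1.45 and 1.82 (-0.81 ± 0.13, limma adjusted p = 0.011). The guidance ligand Slit2 was at 3.28, 4.11 and 3.27 against 1.69, 1.80 and 1.61 (-0.75 ± 0.15, limma adjusted p = 0.040), and its +/+ libraries lay above all 9 libraries of the other normal genotypes (1.41 to 2.62). Ccnd2, a D-type cyclin that drives entry into the cell cycle, was at 12.9, 17.5 and 14.9 against 9.40, 9.27 and 7.65 (-0.72 ± 0.12, limma adjusted p = 0.019). The lipid kinase Pik3c2b fell from 14.7 ± 0.391 to 8.62 ± 0.627 (-0.70 ± 0.11, limma adjusted p = 0.012), the cytokine receptor Lifr from 15.8 ± 1.28 to 9.30 ± 0.796 (-0.70 ± 0.12, limma adjusted p = 0.020) and the kinase Sik2 from 5.71 ± 0.190 to 3.49 ± 0.112 (-0.58 ± 0.12, limma adjusted p = 0.042).

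**Figure D4:**
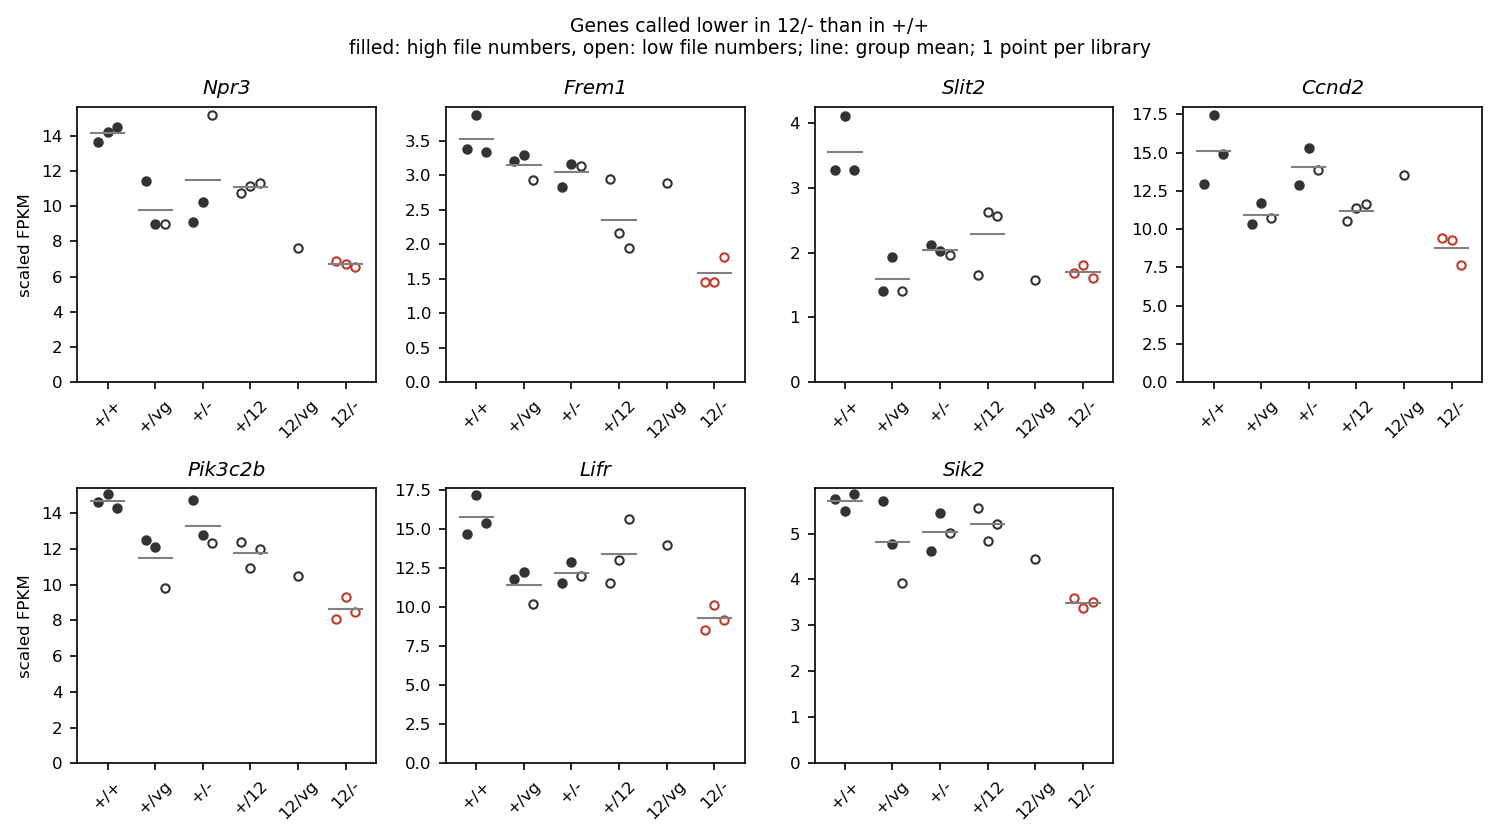
Scaled FPKM (vertical axis, linear, from 0) of the 7 genes called lower in 12/-, 1 point per library, in the 6 genotypes, with a line at the group mean. Red points are 12/-, filled points have a file number above 300 and open points one below it; the red points lie below every library of the normal genotypes for all genes but Slit2.

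Endocardial genes are expressed in the lining of the heart. Npr3 was the 1 called of 15 tested, 11 had a negative difference (48.9% of all genes had a positive one) and the median was -0.18. Hand2, a transcription factor of the endocardium, and Gpr126, an adhesion receptor, both singled out after their values were seen, did not pass. Hand2 was at 11.5, 11.5 and 10.4 FPKM in +/+ and 6.00, 4.38 and 6.27 in 12/- (-0.90 ± 0.24, limma adjusted p = 0.151), and Gpr126 at 5.28 to 5.64 and 1.63 to 2.10 (-1.18 ± 0.32, limma adjusted p = 0.155). Genes of cushion formation had 0 of 12 called in limma, 2 higher and 2 lower before adjustment (p under 0.05), 9 negative and a median of -0.36. Cardiomyocyte markers also leaned lower: 7 of 9 tested had a negative difference and 2 a positive one. Their median was -0.74, and -0.17 against the 5 normal libraries with low file numbers. Myl2 had the most negative difference of that list (limma adjusted p = 0.094). It was at 10.1, 1.81 and 7.76 in +/+ and at 0.354, 0.114 and 0.618 in 12/-. In +/+ replicate 2, where Myl2 was at 1.81, Npr3 was at 14.2 and Hand2 at 11.5. These are values of 1 library, and the part of cardiomyocyte RNA in the endocardial differences was not tested.

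None of the 7 falls kept its call in every fit that left out 1 library. The falling genes called numbered 0, 5 and 1 of 7 without 12/- replicates 1, 2 and 3, and 6, 0 and 2 without +/+ replicates 1, 2 and 3, with adjusted p-values of the lost genes up to 0.173 and log2 differences of at least 0.560 in size. Against the 5 normal libraries with low file numbers the 7 differences were smaller, from -0.16 (Slit2) to -0.68 (Npr3), with limma adjusted p-values of 0.124 to 0.676. There Frem1 was at -0.48, Lifr at -0.38, and Pik3c2b and Ccnd2 at -0.37, each over 1.5 times smaller than against +/+.

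Notch pathway genes showed no called change. Of 4 receptors, 10 ligands and Fringe genes, 14 cleavage and cofactor genes and 12 target genes tested, 0 were called in limma, and before adjustment (p under 0.05) the targets had 2 higher and 2 lower. The targets did not move one way: Hes1 was at 25.7, 38.3 and 37.5 FPKM in +/+ and 23.3, 20.5 and 18.9 in 12/- (-0.65 ± 0.27, limma adjusted p = 0.354), Hey1 at 52.6, 72.1 and 61.3 and 47.9, 43.0 and 29.5 (-0.63 ± 0.32, limma adjusted p = 0.447), and the gap junction gene Gja5 at 39.9, 37.0 and 44.2 and 26.2, 26.7 and 22.1 (-0.67 ± 0.25, limma adjusted p = 0.314). In each of these the 12/- libraries lay below the 3 +/+ libraries. Of the 12 targets tested, 2 had all 12/- libraries above (10.4% of all genes did) and 4 had them below (9.47% of all genes did). Nrarp, a feedback inhibitor of Notch, went the other way, at 7.66, 8.04 and 8.21 against 17.9, 11.5 and 10.4 (0.63 ± 0.18, limma adjusted p = 0.186), and so did Id2 (0.66 ± 0.19, limma adjusted p = 0.193). The target list had a median of -0.03, whose sign changed in 3 of the 22 alternatives, and the difference of Hey1 was 0.125 for 12/- against the 5 normal libraries with low file numbers.

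Among ligands, Jag2 had the largest difference, at 2.76, 3.30 and 2.62 FPKM in +/+ and 9.32, 6.46 and 6.29 in 12/- (1.09 ± 0.25, limma adjusted p = 0.090), while Jag1 was at 2.78 to 3.18 and 1.92 to 2.35 (-0.35 ± 0.18, limma adjusted p = 0.465). Neither pair of groups overlapped, with 12/- above for Jag2, as for 10.4% of all genes, and below for Jag1, as for 9.47%. Dll4, the ligand of arterial and tip cells, overlapped between groups at 6.40 to 10.4 and 9.82 to 17.6 (limma adjusted p = 0.501), as did the arterial gene Efnb2 at 29.1 to 33.6 and 19.6 to 32.0 (limma adjusted p = 0.715). Notch4, an endothelial receptor, was at 7.98 to 11.1 in +/+ and 12.3 to 20.7 in 12/- (0.64 ± 0.21, limma adjusted p = 0.240).

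**Figure D5:**
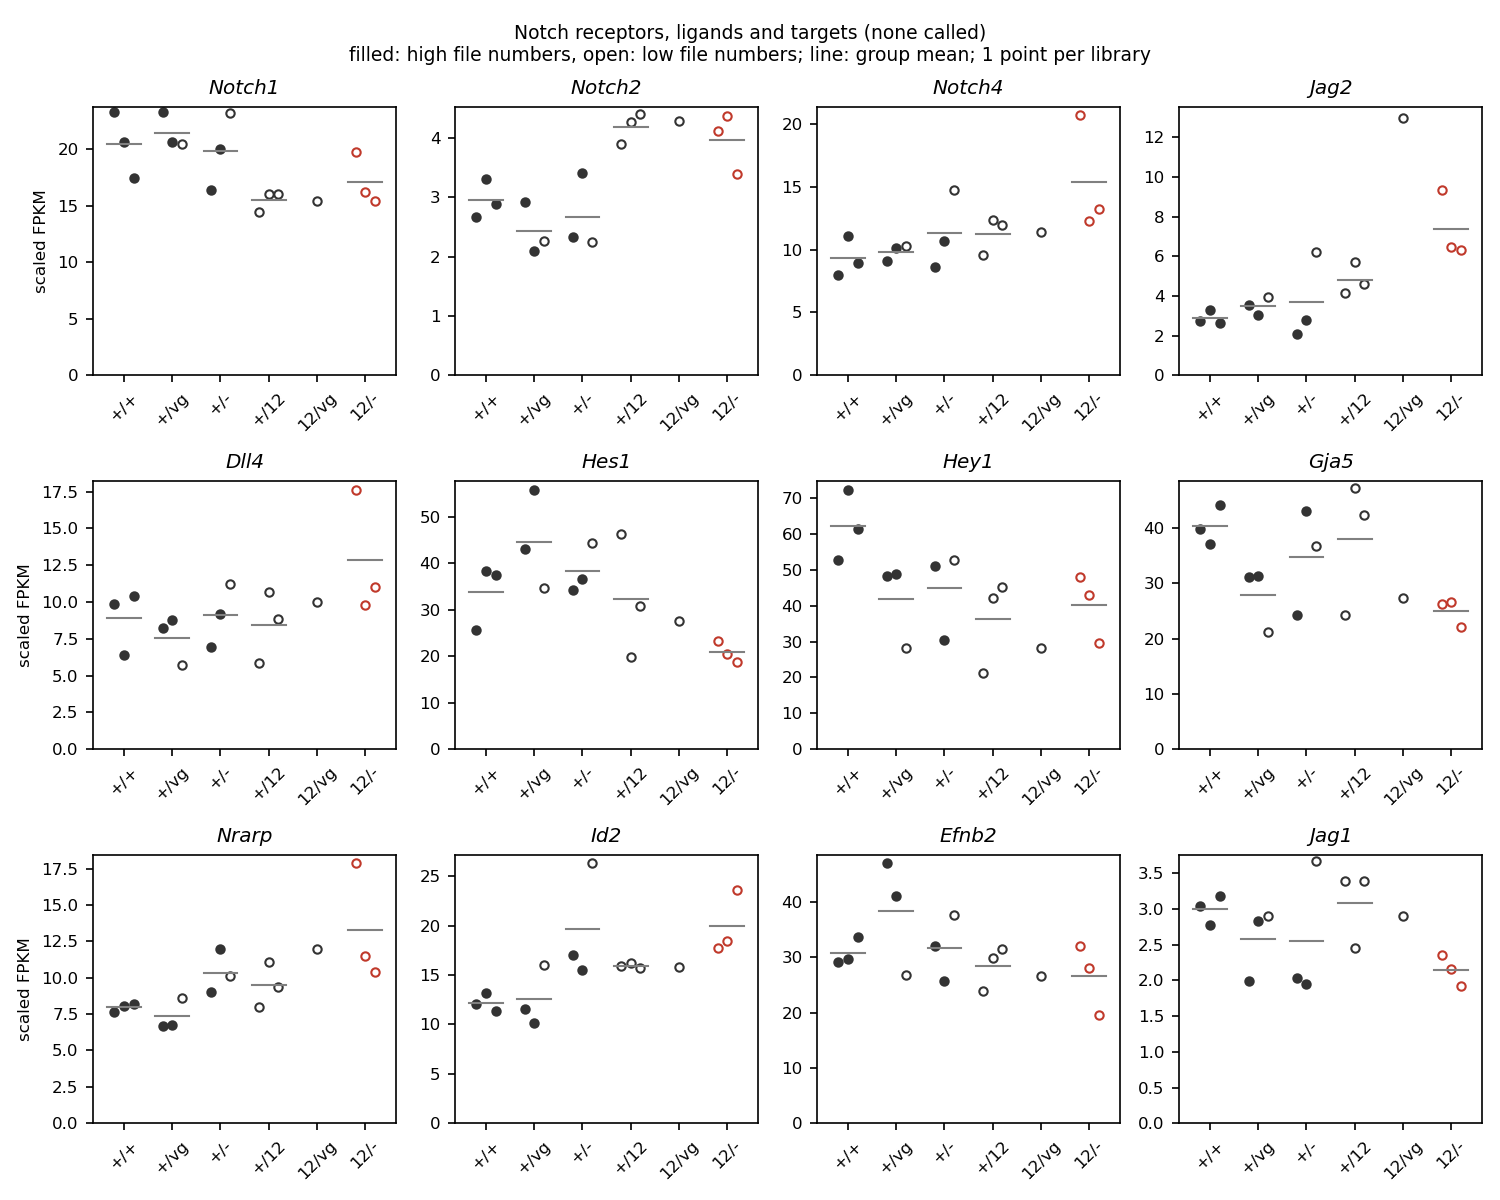
Scaled FPKM (vertical axis, linear, from 0) of 12 genes of the Notch pathway and its targets, 1 point per library, in the 6 genotypes, with a line at the group mean. Red points are 12/-, filled points have a file number above 300 and open points one below it; none of these genes was called, Hes1, Hey1 and Gja5 are lower in 12/- than in +/+, and Nrarp, Id2 and Jag2 are higher.

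Cell cycle genes had medians near that of all genes. DNA replication and mitosis had 0 of 25 called in limma, 1 higher and 1 lower before adjustment (p under 0.05), and a median of -0.07. In the list of G1 cyclins, Myc and CDK inhibitors, Ccnd2 was the 1 called of 13. The CDK inhibitor Cdkn1a was at 4.78, 3.58 and 7.10 FPKM in +/+ and 15.5, 10.8 and 15.3 in 12/- and did not pass (1.30 ± 0.41, limma adjusted p = 0.231), and neither did the cyclin Ccne1 (-0.65 ± 0.23, limma adjusted p = 0.281). Cholesterol and fatty acid synthesis genes had mostly negative differences and no called member. In limma 0 of 25 were called, and before adjustment (p under 0.05) 0 were higher and 7 lower. A negative difference was seen in 23 (48.9% of all genes had a positive one), and the median was -0.35, negative in all 22 alternatives run. Idi1 (-0.71 ± 0.21, limma adjusted p = 0.195) and Sqle (-0.52 ± 0.17, limma adjusted p = 0.233) had the smallest p-values of that list.

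The other normal genotypes give a wider reference for the 63 genes, though the fit already used them for its spread. For 50 of the 56 rises (89.3%) the 12/- libraries lay above all 12 libraries of the 4 normal genotypes, where 1.91% of all tested genes did. These shares are not like for like, because all 56 were already above the 3 +/+ libraries, which are among the 12. Of the 1094 tested genes above +/+, 202 lay above all 12. The exceptions among the 56 were Ccng2, Csnk1e, Hmox1, Khnyn, Ndrg1 and Rpl17. For 6 of the 7 falls the 12/- libraries lay below all 12, where 0.929% of all genes did (98 of the 999 that lay below +/+). The +/+ libraries themselves lay beyond the 9 other normal libraries for 5 of the rises (Arhgap18, Bhlhe40, Cav1, Ccng2 and Hmox1) and 2 of the falls (Frem1 and Slit2). Against the 5 normal libraries with low file numbers, from +/12, +/- and +/vg, 43 genes were called higher, 33 of them among the 56, and 2 lower, 0 of them among the 7. The differences of 11 rises moved by over 1.5 times there, to between 0.27 and 0.89: Xylt1, Hmox1, Plod1, Rpl17, Ptrf, Khnyn, Ccng2, Smad7, Arhgap18, Csnk1e and Rpl6. In that fit 10 of the 15 oxygen and mitochondrial genes, 7 of the 11 sugar genes, 5 of the 7 matrix genes, 8 of the 11 vascular genes and 3 of the other 12 were called. A term for the file-number range was estimated from +/- and +/vg alone. Their only libraries with low file numbers were +/- replicate 3 and +/vg replicate 3. Of the others, +/- replicate 2 held only 0.189 gigabases, the least of the series. The fit with that term left 19 called higher, 18 of them among the 56, and 4 lower, of which Npr3 was among the 7. With that term the differences of 3 rises moved by over 1.5 times, to 1.16 for Pde4b, 0.45 for Eltd1 and 0.45 for Arhgap18.

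The partly impaired 12/vg genotype had 1 library with 0.262 gigabases, so its values are given without comparison. Adm was at 2.46 FPKM there, Bnip3 at 7.77, Ndufa4l2 at 0, Cav1 at 7.98 and Vegfa at 1.17. Kcne3 was at 47.7, Slc16a3 at 27.2 and Tpi1 at 135.4. Npr3 was at 7.65 and Ccnd2 at 13.6.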

How the data were processed

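RNA from sorted CD31-positive cells of day 9.5 mouse embryos was sequenced in 16 libraries, of which the 3 of 12/- and the 3 of +/+ (spelled in 2 ways in the labels) were compared. The authors deposited for each library a table of 28107 transcripts with FPKM values and a status (a cufflinks layout, per the file headers). The deposited coverage values give the mean depth of reads on each transcript, per the file headers, and their ratio to FPKM gave the aligned gigabases of each library. The submitters' processing notes name TopHat2 2.0.9 and the build mm9. Not given in the sources used here are the version of cufflinks, the strandedness and the read length.

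FPKM was summed over gene symbols (Python 3.11.15, pandas 2.3.3), and 211 symbols with a transcript whose status was not OK were left out, 87 of them with a mean of 1 FPKM or more. Libraries were divided by median-ratio factors over 8638 genes, and 10550 genes passed a minimum mean FPKM of 1 over the 16 libraries. The values log2(scaled FPKM + 1) were fitted in limma 3.58.1 (R 4.3.3, lmFit, eBayes with a trend, two-sided, 6 genotype groups, 10 residual degrees of freedom). Differences and their standard errors are on that scale, which understates changes of low genes. Benjamini-Hochberg adjustment ran over all 10550 genes, and genes were called at an adjusted p under 0.05. FPKM is not a count, so no count test or counting interval is given. Simulated data for 10550 genes used the group means, with 12/- set to the +/+ means, and the residual spread over all genotypes. The changed genes were drawn from genes of middle level in +/+, so recovery was not measured for low or very high genes. The fit recovered 75 of 100 genes changed by 1 and 97 of 100 changed by 2 on the log2 scale. There were 0 wrong signs and 14 false calls.

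The comparison, the lists and the tests were chosen with earlier results of these data known, and the role groups after the values were seen. Named were Notch1 and Notch2, the 25 largest rises, all falls, called members of lists, up to 3 members by p of a list with none called, and well-known endothelial, arterial, Notch and cell cycle genes. Other called genes, and uncalled genes such as Pgk1, Gapdh, Ldha, Slc2a1, Hif1a, Epas1, Ier3, Ddit4, Nid2, Col4a2, Sparc, Calcrl, Ramp2, Hand2 and Gpr126, were chosen after their values were seen. Genes marking the sex of an embryo are not reported. The alternatives were other scalings, pseudocounts, filters, moderation and weights, covariates for depth or file number, other reference libraries, and leaving out libraries. Promoter windows were matched by symbol.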

Additional observations from a re-analysis of the deposited data

How the results depend on the processing

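The log2 differences of the 63 called genes kept their direction in all 22 alternatives, while 350 of 1367 values of a gene under an alternative did not pass the threshold. Higher calls numbered 119 with array weights, 97 without the 2 shallow libraries, 104 with a depth covariate, 32 with the 6 libraries fitted alone (24 of them among the 56) and 19 with a term for the file-number range (18 among the 56), against 56 in the report. Leaving out 1 library gave 18 (without 12/- replicate 1) to 74 (without +/+ replicate 1). Lower calls, 7 in the report, numbered 0 without scaling, 4 at a mean FPKM of at least 5, where fewer genes were tested, 13 with no filter, 24 with array weights, 15 without the shallow libraries, 17 with a depth covariate, 4 with the range term and 2 against low-range normal libraries, and 1 to 19 when 1 library was left out (lowest without 12/- replicate 3, highest without +/+ replicate 1). Except where stated, the cause was not tested. Hey1 had a difference of 0.125 against the low-range normal libraries, in place of -0.63. Epas1 had -0.088 with the range term and -0.006 against the low-range libraries, in place of 0.40. Calcrl had 0.050 against the low-range libraries, in place of -0.14, and Ramp2 had -0.100 with the range term, in place of 0.16. Medians of the megakaryocyte list turned from 0.74 to -0.465 and -0.433 under the same 2 settings. Over the alternatives, medians also changed sign for HIF subunits and hydroxylases (down to -0.016), arterial (-0.099), venous (-0.097), caveola (-0.032), BMP and TGF-beta (-0.125) and shear-responsive genes (-0.002), and for DNA replication (up to 0.048). Further lists turned negative: Notch ligands and Fringe (-0.185), adrenomedullin system (-0.075), guidance (-0.158), G1 cyclins (-0.08) and IGF genes (-0.065). So did unfolded protein and amino acid stress (-0.081), erythroid (-0.223) and epithelial genes (-0.07). Interferon-stimulated (0.05) and haemogenic genes (0.086) turned positive. The largest log2 difference of the called genes was that of Adm (2.94, and 2.92 for Bnip3), but with the range term Bnip3 had 3.30 and Adm 2.78. No paired analysis was possible because the labels carry no replicate numbers, and those used here only name libraries. The depth behind low FPKM values is limited, so values below 1 have the least precision.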

Other observations

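Other gene groups were measured beside those of the report. Shear-responsive genes, which endothelium expresses under blood flow, had 2 of 9 tested called higher, Cav1 and Hmox1, and a median of 0.23. Among immediate-early genes, the fast transcriptional response to stimuli, 17 of 19 had a positive difference (48.9% of all genes did), with a median of 0.23. In limma 0 were called, with 2 higher and 0 lower before adjustment (p under 0.05). Against the low-range normal libraries that median was -0.206. Guidance genes had Slit2 as the 1 called of 13, and Sema3f, a repulsive cue, was at 1.22 ± 0.463 FPKM in +/+ and 2.81 ± 0.469 in 12/- (SD, n = 3 each, 0.79 ± 0.22, SE, limma adjusted p = 0.165).

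In the list of IGF binding proteins and receptors, 0 of 10 were called in limma, with 2 higher and 1 lower before adjustment (p under 0.05). Its binding proteins pointed in different directions, with Igfbp3 at 1.48 and Igfbp2 at 1.19, and Igfbp5 at -0.69 (limma adjusted p = 0.059, 0.330 and 0.234). Haemogenic and blood progenitor genes had 0 of 10 called in limma, 3 higher and 0 lower before adjustment. In that list Kit, a receptor of blood progenitors, had a difference of 0.54 ± 0.16 (limma adjusted p = 0.187). Its 12/- libraries lay above all +/+ libraries, as for 10.4% of all genes. All 13 tested megakaryocyte and platelet genes had a positive difference (48.9% of all genes did), with a median of 0.74. But 0 were called in limma, and 12/- replicate 3 held the highest sum of that list, 1720 FPKM.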
